A study of Homo sapiens with 9 samples.

Results

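The genes described here are 40 genes of the hypoxia response and of glycolysis, set by name: 17 enzymes of the pathway from glucose to lactate, 5 genes that regulate this flux or export lactate, 17 other targets of the hypoxia-inducible factors (HIF), and HIF1A. A probe was named for 38 of them, and all 38 passed the filter on dim probes and were tested, among 16180 genes tested in all. CA9 and SLC16A3 were not analysed here. Each gene was read from its brightest probe. RNA came from MKN45, a line of cultured human stomach cancer cells, and was read on 9 single-colour Illumina bead arrays with 1 sample each. One group of 3 arrays came from cells with a YAP-S127A vector, which expresses the transcriptional coactivator YAP1 with a serine targeted by Hippo pathway kinases replaced by alanine. The controls were 3 arrays of cells with a control vector and 3 arrays of mock cells, which share the cell line and carry no YAP-S127A. The sources used here give neither the promoter of the vector, nor the time of expression, nor whether the cells were 1 clone.

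HIF is a heterodimer whose alpha subunit, HIF1A or its relative EPAS1, is made all the time and destroyed when oxygen is plentiful. The EGLN prolyl hydroxylases mark it with hydroxyl groups and the VHL ubiquitin ligase then removes it. In low oxygen the subunit persists, pairs with ARNT and binds a short core motif in regulatory DNA, and genes for glucose breakdown, collagen modification, pH balance, blood vessel growth and mitophagy are transcribed. In solid tumours these genes serve as a readout of HIF activity at the RNA level. HIF activity itself is set largely at the level of protein, which these arrays do not measure.

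All 10 gastric epithelial marker genes looked at were above the filter. Their summed log2 level was 115 in YAP-S127A, 117 in vector and 117 in mock arrays. Against either control 5 of the 10 fell and 2 rose in YAP-S127A cells. Of all genes tested, 4.25% were called against mock and 3.45% against vector. Changes of the 10 markers ran from −1.07 to 1.25 against mock and from −1.17 to 1.54 against vector. The summed level does not show these changes. Of 10 markers of other cell types 7 passed the filter, none was called, and the summed level of all 10 was 66.0 in YAP-S127A, 65.5 in vector and 65.3 in mock arrays. The part of these markers in the results was not tested. The median raw signal was 107 to 128 intensity units on YAP-S127A arrays, 109 to 132 on vector arrays and 129 to 136 on mock arrays. Mock array 1 stood apart on the second principal component of all genes tested, with a score of 17.9 where the other 8 arrays ran from −9.94 to 3.15. The labels do not state whether replicate arrays are of independently grown cells, so the p-values rest on the spread among these samples, which may be technical. In whole-culture RNA, fewer cells expressing a gene and less RNA per cell cannot be told apart.

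Against mock cells, 12 of the 38 genes fell in YAP-S127A cells, 0 rose and 26 did not pass, where 4.25% of all genes tested were called, 2.07% as lower and 2.18% as higher. Calls are those of limma with 3 arrays per group, at a p under 0.05 after Benjamini-Hochberg adjustment over every gene tested. Among the other HIF targets 8 of 16 fell, among the glycolytic enzymes 3 of 17, and among the measured regulators 1 of 4. The median change of the other HIF targets was −0.40 on the log2 scale and that of the glycolytic enzymes −0.06, beside −0.002 over all genes tested. Against vector cells 4 of the 38 genes fell, 0 rose and 34 did not pass, where 3.45% of all genes were called, 1.7% as lower and 1.76% as higher. The medians there were −0.23 for the other HIF targets and −0.11 for the enzymes, beside −0.005 over all genes. These comparisons share the YAP-S127A arrays. By the arrays alone, 16 of the 38 genes lay below all mock arrays on every YAP-S127A array and 1 above, where 10.1% and 10.3% of all genes did. Below all vector arrays lay 11 and above 1, where 12% and 10.6% of all genes did.

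**Figure D1:**
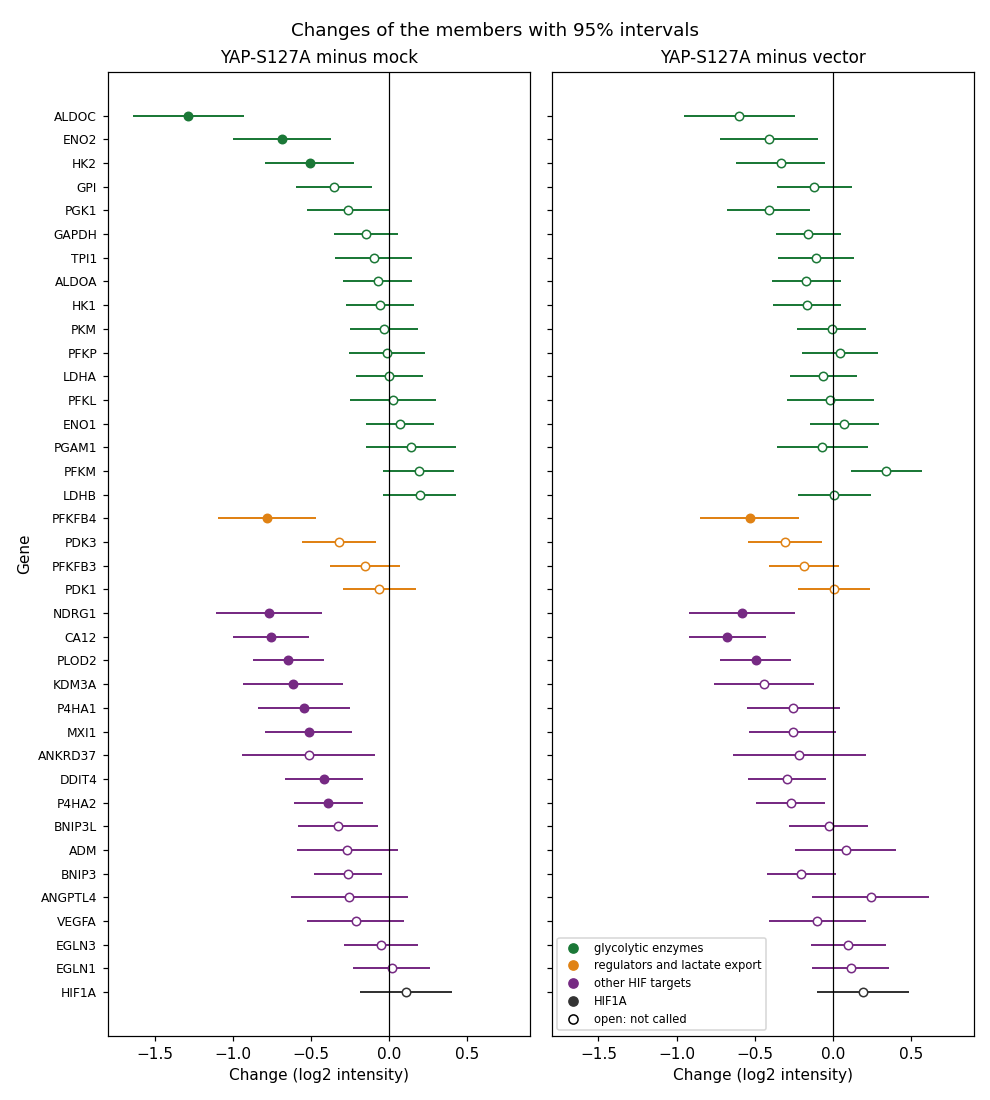
Change of each gene on the log2 intensity scale, YAP-S127A minus mock on the left and YAP-S127A minus vector on the right, with 95% intervals of the limma fit. Filled points are called at an adjusted p under 0.05: 12 genes against mock and 4 against vector, all of them lower, with purple points for the other HIF targets, green for enzymes, orange for regulators and black for HIF1A.

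The promoters of 6 genes on which the comparisons turn are shown for the core motif bound by HIF: those of 5 genes that fell, and that of LDHA, which did not pass. They are the RefSeq windows of GRCh38.p14 from 250 bases before to 50 bases after a listed gene start, read 5′ to 3′ in the direction of the gene. Capitals mark matches to ACGTG or GCGTG on either strand, and CACGTG holds a match on each strand. The windows are ALDOC at chr17:28576846-28577145 (minus strand), ENO2 at chr12:6914330-6914629 (plus), PFKFB4 at chr3:48556754-48557053 (minus), CA12 at chr15:63381797-63382096 (minus), PLOD2 at chr3:146161135-146161434 (minus) and LDHA at chr11:18394313-18394612 (plus).
ALDOC: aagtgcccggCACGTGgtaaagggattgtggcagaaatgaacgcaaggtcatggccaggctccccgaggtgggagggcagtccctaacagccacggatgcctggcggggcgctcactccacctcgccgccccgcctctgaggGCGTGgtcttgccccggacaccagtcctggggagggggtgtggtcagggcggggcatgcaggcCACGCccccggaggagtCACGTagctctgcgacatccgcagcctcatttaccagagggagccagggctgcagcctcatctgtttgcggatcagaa
ENO2: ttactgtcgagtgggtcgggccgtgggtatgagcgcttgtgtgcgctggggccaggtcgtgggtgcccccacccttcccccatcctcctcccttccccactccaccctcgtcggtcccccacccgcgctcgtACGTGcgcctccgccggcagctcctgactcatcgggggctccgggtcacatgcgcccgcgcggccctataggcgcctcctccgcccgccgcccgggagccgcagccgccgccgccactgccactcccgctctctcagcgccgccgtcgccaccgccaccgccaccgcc
PFKFB4: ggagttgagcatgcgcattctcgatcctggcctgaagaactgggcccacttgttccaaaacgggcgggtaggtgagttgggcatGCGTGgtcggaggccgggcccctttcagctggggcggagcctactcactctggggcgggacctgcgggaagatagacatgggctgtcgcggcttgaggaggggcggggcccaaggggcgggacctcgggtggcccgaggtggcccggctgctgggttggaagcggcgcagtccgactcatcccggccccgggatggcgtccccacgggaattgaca
CA12: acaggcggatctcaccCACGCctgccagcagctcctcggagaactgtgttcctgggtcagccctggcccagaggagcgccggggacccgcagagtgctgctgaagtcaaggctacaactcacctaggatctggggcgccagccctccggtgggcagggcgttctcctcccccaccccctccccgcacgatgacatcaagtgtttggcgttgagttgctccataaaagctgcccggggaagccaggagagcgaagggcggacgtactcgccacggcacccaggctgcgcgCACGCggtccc
PLOD2: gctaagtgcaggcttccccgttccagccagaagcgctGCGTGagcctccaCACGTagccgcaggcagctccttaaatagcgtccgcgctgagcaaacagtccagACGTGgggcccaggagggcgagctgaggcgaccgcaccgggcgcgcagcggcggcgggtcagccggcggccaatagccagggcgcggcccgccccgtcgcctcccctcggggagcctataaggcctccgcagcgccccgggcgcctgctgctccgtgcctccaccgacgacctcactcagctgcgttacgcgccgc
LDHA: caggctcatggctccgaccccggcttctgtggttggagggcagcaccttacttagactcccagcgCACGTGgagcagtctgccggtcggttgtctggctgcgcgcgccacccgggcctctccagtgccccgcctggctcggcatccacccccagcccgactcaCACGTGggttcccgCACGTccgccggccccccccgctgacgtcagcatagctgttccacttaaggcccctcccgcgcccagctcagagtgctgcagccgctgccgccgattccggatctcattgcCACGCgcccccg
ALDOC holds 5 matches, PLOD2 3, CA12 2, and ENO2 and PFKFB4 1 each. LDHA, whose level did not pass in any comparison, holds 6 in this window and 1 in the window of its other listed start. A window was listed for 37 of the 40 genes, and several genes have more than 1, some of which overlap. A match was present in 46 of 67 windows of these genes (68.7%), beside 17012 of all 35116 promoter windows (48.4%). For the genes that fell against mock it was present in 13 of 15 windows, and for those that did not pass in 29 of 46. Counted by gene, at least 1 window held a match for 10 of 11 genes that fell and 22 of 24 that did not pass. Among all genes with a listed window, 14318 of 27305 held a match. By class it was present in 23 of 37 windows of the enzymes and 14 of 17 of the other HIF targets. By gene the order was the other way, with a match for 16 of 17 enzymes and 12 of 14 other HIF targets. A match describes letters in the window and is not a measured binding site.

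The oxygen-sensing factors among the genes did not pass in any comparison. HIF1A, the oxygen-labile subunit, read 9.94, 10.16 and 9.75 on YAP-S127A arrays 1 to 3, against 9.84, 9.75 and 9.69 on the vector arrays and 9.92, 10.15 and 9.46 on the mock arrays (normalized log2 intensity). The groups overlapped, and mock array 3 was the lowest of all. HIF1A differed by 0.19 ± 0.14 (SE) from vector and by 0.11 ± 0.14 from mock, with 95% intervals of −0.10 to 0.48 and −0.18 to 0.40, and its further probes by −0.21 and 0.05 from vector. EGLN1, the main prolyl hydroxylase that marks HIF alpha subunits, averaged 7.24 ± 0.09 in YAP-S127A, 7.12 ± 0.14 in vector and 7.22 ± 0.20 in mock arrays (SD, n = 3 each). EGLN3, a related hydroxylase that is itself a HIF target, averaged 8.59 ± 0.24, 8.50 ± 0.05 and 8.65 ± 0.04 in the same groups. Of 10 further HIF subunits and oxygen-sensing factors, 1 passed against mock and 0 against vector, where 4.25% and 3.45% of all genes tested did. It was EPAS1, the alpha subunit of HIF-2, which read 9.75, 9.68 and 9.82 on YAP-S127A, 9.53, 9.52 and 9.51 on vector and 9.34, 9.50 and 9.36 on mock arrays. All YAP-S127A arrays lay above all control arrays. EPAS1 rose by 0.35 ± 0.10 against mock (limma, adjusted p = 0.0432) and differed by 0.23 from vector (adjusted p = 0.238). The call ended in 8 of 9 fits without 1 array, with changes of 0.32 to 0.39 and adjusted p from 0.0551 to 0.14, and was made without mock array 2. VHL differed by −0.12 from each control and did not pass.

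Among the glycolytic enzymes the falls lay in ALDOC, ENO2 and HK2. ALDOC, the aldolase best known from brain, read 9.61, 9.33 and 10.03 on YAP-S127A arrays 1 to 3, against 10.03, 10.23 and 10.50 on vector and 11.36, 10.61 and 10.86 on mock arrays. The 3 groups were stepwise and apart: all YAP-S127A arrays lay below all vector arrays, by a gap too small to show at 2 decimals, and these below all mock arrays. ALDOC fell by 1.29 ± 0.17 (log2, SE), or 2.44-fold, against mock (limma, adjusted p = 2.67e-05). It differed by −0.60 ± 0.17 from vector (adjusted p = 0.051), and the vector arrays differed from mock by −0.69 ± 0.17 (adjusted p = 0.491). ENO2, the enolase typical of neurons, read 8.63, 8.72 and 9.13 on YAP-S127A, 9.08, 9.18 and 9.43 on vector and 9.89, 9.26 and 9.38 on mock arrays. YAP-S127A array 3 lay above the lowest vector array, and all 3 lay below the mock arrays. ENO2 fell by 0.68 ± 0.15 against mock (adjusted p = 0.00786) and differed by −0.41 from vector (adjusted p = 0.154). HK2, the inducible hexokinase that traps glucose in the cell, read 9.64, 9.60 and 9.86 on YAP-S127A, 9.85, 10.05 and 10.21 on vector and 10.55, 10.15 and 9.93 on mock arrays. All YAP-S127A arrays lay below all mock arrays, while array 3 overlapped the vector arrays. HK2 fell by 0.51 ± 0.13 against mock (adjusted p = 0.0304) and its further probe differed by −0.53, while the difference from vector was −0.33 (adjusted p = 0.205). The calls of ENO2 and HK2 against mock ended when certain single arrays were left out. Without mock array 1 the change of ENO2 against mock was −0.49 and that of HK2 −0.34 (adjusted p = 0.0626 and 0.194), and the calls also ended, at changes of −0.58 and −0.48, without YAP-S127A array 1 (0.0651 and 0.121) and, at −0.63 and −0.46, without YAP-S127A array 2 (0.06 and 0.152). The call of ALDOC against mock was made in all 9 fits that left out 1 array, with changes of −1.47 to −1.08. Against vector, ALDOC passed without mock array 1, 2 or 3, vector array 1 or YAP-S127A array 3 (−0.78 to −0.60, limma, adjusted p from 0.0163 to 0.0466). It did not pass without vector array 2 or 3 or YAP-S127A array 1 or 2 (−0.61 to −0.44, adjusted p from 0.127 to 0.301).

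The other 14 enzymes did not pass in any comparison with all 9 arrays. LDHA, which turns pyruvate into lactate and is a textbook HIF target, read 14.15, 14.15 and 14.10 on YAP-S127A, 14.14, 14.31 and 14.13 on vector and 14.07, 14.19 and 14.15 on mock arrays. The groups overlapped, and the 95% interval of its difference ran from −0.21 to 0.21 against mock and from −0.27 to 0.15 against vector. ALDOA, ENO1 and HK1, the paralogues of the genes that fell, differed from mock by −0.07 ± 0.10, 0.07 ± 0.10 and −0.06 ± 0.10. Among these 14, the largest differences from vector were those of PGK1, which makes the first ATP of the pathway, at −0.41 ± 0.12 (adjusted p = 0.0755), and PFKM, a subunit of phosphofructokinase, at 0.34 ± 0.11 (adjusted p = 0.0843). PGK1 read 13.42, 13.34 and 13.04 on YAP-S127A arrays and 13.54, 13.63 and 13.86 on vector arrays, which did not overlap, and 13.76, 13.45 and 13.38 on mock arrays, of which array 3 lay below YAP-S127A array 1. Its further probe differed by −0.14 from vector. PGK1 passed against vector without mock array 1 (−0.41, adjusted p = 0.041). PFKM read 8.87, 8.79 and 8.79 on YAP-S127A arrays, above all 6 control arrays (8.35 to 8.74), as 5.62% of all genes did. GPI, the isomerase after hexokinase, differed by −0.35 ± 0.11 from mock (adjusted p = 0.0847), and passed without YAP-S127A array 3 (−0.48, adjusted p = 0.0192). GAPDH, often used as a constant gene, lay slightly below all controls on all YAP-S127A arrays, at 14.41 to 14.45 against 14.54 to 14.64, and did not pass (−0.15 ± 0.10 against mock). Its dimmer probes differed by −0.13 and −0.05 from mock. PFKL, PFKP, TPI1, PGAM1, PKM and LDHB differed by −0.11 to 0.05 from vector and by −0.10 to 0.20 from mock.

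**Figure D2:**
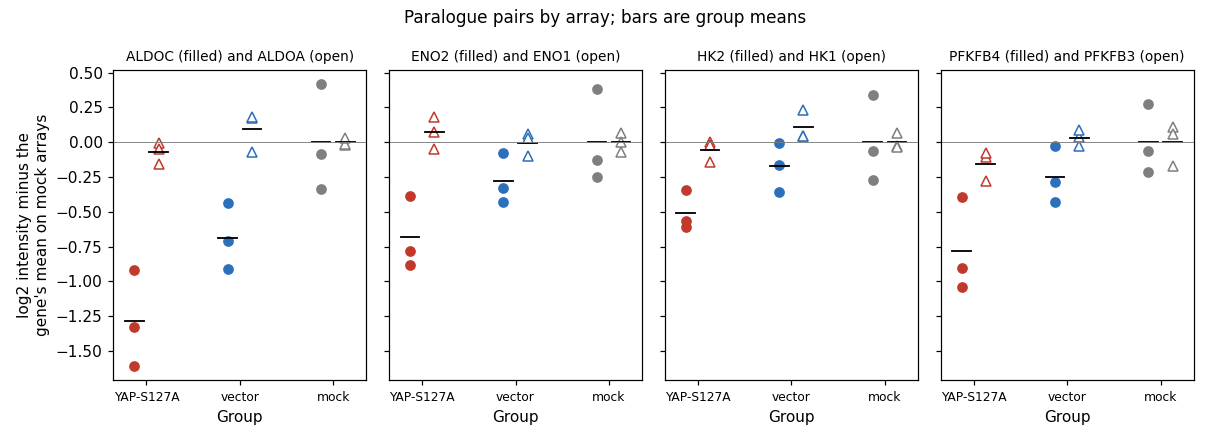
Normalized log2 intensity of 4 paralogue pairs on each array, minus the same gene's mean on mock arrays, for YAP-S127A, vector and mock arrays (points, with bars at group means). ALDOC, ENO2, HK2 and PFKFB4 (filled circles) averaged 0.51 to 1.29 below mock in YAP-S127A arrays, while ALDOA, ENO1, HK1 and PFKFB3 (open triangles) averaged between 0.15 below and 0.07 above.

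Of 12 paralogue pairs among the genes, ALDOC moved furthest from its partner against mock, and ENO2 did against vector. Against mock, the change of ALDOC was −1.21 from that of ALDOA, measured as the within-array log ratio. The ratios of the YAP-S127A and mock arrays did not overlap. The change of ENO2 was −0.75 from that of ENO1, that of PFKFB4 −0.63 from PFKFB3, that of HK2 −0.45 from HK1 and that of PDK3 −0.26 from PDK1, again without overlap. Each gave an exact two-sided permutation p of 0.1, the smallest that 3 against 3 arrays allow, and 0.24 after adjustment over the 12 pairs, so this test cannot pass here. Against vector, the ratios of ALDOC (−0.43), PFKFB4 (−0.35) and HK2 (−0.17) to their partners overlapped between the groups, while those of ENO2 (−0.48), PDK3 (−0.31) and, in the other direction, PFKM over PFKL (0.36) did not, each with an exact p of 0.1 and 0.4 after adjustment. The other pairs, such as P4HA2 with P4HA1 and EGLN3 with EGLN1, overlapped in both comparisons. Between vector and mock, the ratios of ALDOC to ALDOA (−0.78) and LDHB to LDHA (0.13) also did not overlap. Each had an exact permutation p of 0.1, and 0.6 after adjustment. Those of ENO2 (−0.28), PFKFB4 (−0.28), HK2 (−0.28) and PDK3 (0.06) to their partners overlapped between the controls.

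Of the regulators, PFKFB4 fell against both controls. It encodes a bifunctional enzyme that sets the level of fructose 2,6-bisphosphate, the activator of phosphofructokinase. PFKFB4 read 9.48, 9.62 and 10.13 on YAP-S127A, 10.09, 10.24 and 10.49 on vector and 10.80, 10.31 and 10.46 on mock arrays. YAP-S127A array 3 lay just above the lowest vector array, and the other 2 well below. PFKFB4 fell by 0.78 ± 0.15, or 1.72-fold, against mock (limma, adjusted p = 0.00258), called in all 9 fits without 1 array, and by 0.53 ± 0.15 against vector (adjusted p = 0.0492). The call against vector was lost on leaving out YAP-S127A array 1 (−0.40) or 2 (−0.47), or vector array 2 (−0.55) or 3 (−0.42), at adjusted p from 0.117 to 0.263. PFKFB3, its relative with the stronger kinase activity, differed by −0.18 ± 0.11 from vector and −0.15 ± 0.11 from mock. PDK1 and PDK3 are kinases that shut pyruvate out of the mitochondrial oxidation pathway. PDK3 lay below all controls on every YAP-S127A array (9.44 to 9.60 against 9.69 to 10.09) but did not pass (−0.31 from vector, −0.32 from mock), and its dimmer probe differed by −0.05 and −0.13. PDK1 differed by 0.01 from vector and −0.06 from mock.

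Among the other HIF targets, the 3 enzymes that modify collagen each fell against mock. PLOD2, a lysyl hydroxylase that prepares collagen for cross-linking, read 11.42, 11.46 and 11.75 on YAP-S127A, 11.997, 12.08 and 12.03 on vector and 12.26, 12.19 and 12.12 on mock arrays. The 3 groups did not overlap, with vector between YAP-S127A and mock. PLOD2 fell by 0.49 ± 0.11 against vector (limma, adjusted p = 0.00826) and by 0.65 ± 0.11, or 1.56-fold, against mock (adjusted p = 0.000538), and its further probes were lower too, by −0.21 and −0.65 against vector. P4HA1, the catalytic subunit of collagen prolyl 4-hydroxylase, read 10.93, 10.93 and 11.26 on YAP-S127A, 11.29, 11.17 and 11.42 on vector and 11.98, 11.35 and 11.42 on mock arrays. YAP-S127A array 3 lay above the lowest vector array, and all 3 lay below the mock arrays. P4HA1 fell by 0.54 ± 0.14 against mock (adjusted p = 0.0257), with its dimmer probe at −0.20, and differed by −0.25 from vector (adjusted p = 0.409). P4HA2, the alternative subunit, read 8.95, 9.01 and 9.23 on YAP-S127A, 9.32, 9.31 and 9.37 on vector and 9.45, 9.52 and 9.40 on mock arrays, with no overlap. It fell by 0.39 ± 0.10 against mock (adjusted p = 0.0319) and differed by −0.27 from vector (adjusted p = 0.181). The call of PLOD2 against mock was made in all 9 fits without 1 array, and that against vector ended without vector array 2 (−0.47, adjusted p = 0.0508), YAP-S127A array 1 (−0.43, 0.0665) or YAP-S127A array 2 (−0.46, 0.061). The calls of P4HA1 and P4HA2 ended without mock array 1 (−0.35 and −0.39, adjusted p = 0.17 and 0.0737), YAP-S127A array 1 (−0.49 and −0.33, 0.123 and 0.162) or YAP-S127A array 2 (−0.49 and −0.36, 0.138 and 0.139). That of P4HA2 also ended without mock array 2 (−0.36, adjusted p = 0.0978).

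CA12, a membrane carbonic anhydrase that helps cells handle the acid of glycolysis, had the lowest adjusted p of the 38 genes against vector. It read 9.21, 9.54 and 9.42 on YAP-S127A, 9.89, 10.17 and 10.14 on vector and 10.04, 10.10 and 10.30 on mock arrays. All YAP-S127A arrays lay below all 6 control arrays, while vector and mock arrays overlapped. CA12 fell by 0.67 ± 0.12 against vector (limma, adjusted p = 0.000846) and by 0.76 ± 0.12, or 1.69-fold, against mock (adjusted p = 0.000206). Both calls were made in all 9 fits that left out 1 array. Its dimmer probe differed by −0.18 from vector and −0.06 from mock, and with the mean of both probes the call against mock ended (−0.41, adjusted p = 0.0559).

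NDRG1, a stress-responsive gene strongly induced by hypoxia in many cell types, read 11.88, 11.75 and 12.42 on YAP-S127A, 12.49, 12.44 and 12.88 on vector and 13.10, 12.48 and 12.79 on mock arrays. YAP-S127A array 3 lay just below the lowest control arrays, and the other 2 well below. NDRG1 fell by 0.77 ± 0.16, or 1.71-fold, against mock (limma, adjusted p = 0.00561) and by 0.58 ± 0.16 against vector (adjusted p = 0.0442). Without YAP-S127A array 2 these values were −0.64 (adjusted p = 0.0654) and −0.45 (adjusted p = 0.262), and the call against vector also ended without vector array 1, 2 or 3 (−0.64, −0.66 and −0.45, adjusted p from 0.0609 to 0.263) or YAP-S127A array 1 (−0.52, 0.177). With trend and robust moderation both calls ended (adjusted p = 0.0869 against mock and 0.214 against vector). DDIT4, an inhibitor of mTORC1 signalling, read 12.26, 12.38 and 12.71 on YAP-S127A, 12.71, 12.65 and 12.85 on vector and 12.995, 12.74 and 12.86 on mock arrays. YAP-S127A array 3 overlapped the vector arrays and lay just below the mock arrays. The difference of DDIT4 from vector was −0.29 ± 0.12 and did not pass (limma, adjusted p = 0.209). DDIT4 fell by 0.42 ± 0.12 against mock (adjusted p = 0.0448), a call that ended without YAP-S127A arrays 1 or 2, vector array 1, 2 or 3, or mock arrays 1 or 3, with changes of −0.42 to −0.32 and adjusted p from 0.0547 to 0.235. The mitophagy receptors BNIP3 and BNIP3L did not pass. BNIP3 lay at 12.40 to 12.50 on YAP-S127A arrays, just below the 12.50 to 12.79 of the control arrays, and differed by −0.26 from mock (adjusted p = 0.173). BNIP3L differed by −0.33 ± 0.12 from mock and −0.03 ± 0.12 from vector. Without YAP-S127A array 3 it passed as lower against mock (−0.46, limma, adjusted p = 0.0387).

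The HIF targets that act in the nucleus showed 2 falls against mock. KDM3A, a histone H3 lysine 9 demethylase, read 9.10, 9.23 and 9.69 on YAP-S127A, 9.67, 9.81 and 9.87 on vector and 10.36, 9.76 and 9.74 on mock arrays, and fell by 0.62 ± 0.15 against mock (limma, adjusted p = 0.0207). MXI1, an antagonist of MYC, read 6.82, 7.15 and 7.29 on YAP-S127A, 7.25, 7.38 and 7.38 on vector and 7.89, 7.36 and 7.54 on mock arrays, and fell by 0.51 ± 0.13 (adjusted p = 0.0251). In each, YAP-S127A array 3 overlapped the vector arrays and lay just under the lowest mock array. The calls ended without mock array 1, where KDM3A changed by −0.41 (adjusted p = 0.142) and MXI1 by −0.37 (0.156), without YAP-S127A array 1 (−0.49 and −0.38, 0.138 and 0.173) or without YAP-S127A array 2 (−0.56 and −0.55, 0.114 and 0.0686). Further MXI1 probes were at −0.33, 0.02 and 0.14 against mock, and with the mean of its 4 probes the call ended (−0.17, adjusted p = 0.396). ANKRD37, an ankyrin-repeat protein, varied widely within mock arrays (10.02, 8.72 and 9.42, SD 0.65). Its YAP-S127A arrays read 8.77, 8.61 and 9.23, and it did not pass against mock (−0.51 ± 0.20, adjusted p = 0.178), with a difference of −0.85 that passed without mock array 2 (adjusted p = 0.00426) and one of −0.20 without mock array 1 (adjusted p = 0.687).

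The secreted factors did not pass in either comparison with all 9 arrays. VEGFA, the main angiogenic growth factor induced by HIF, read 8.53, 8.37 and 8.51 on YAP-S127A, 8.17, 8.72 and 8.82 on vector and 9.002, 8.45 and 8.60 on mock arrays. The groups overlapped, and the vector arrays alone spanned the YAP-S127A arrays. VEGFA differed by −0.10 ± 0.15 from vector and −0.21 ± 0.15 from mock, with 95% intervals of −0.40 to 0.21 and −0.52 to 0.09. ADM, the vasodilator adrenomedullin, read 11.48, 11.45 and 11.87 on YAP-S127A, 11.52, 11.41 and 11.63 on vector and 12.13, 11.39 and 12.08 on mock arrays. ANGPTL4, an inhibitor of lipoprotein lipase, read 9.56, 9.70 and 10.22 on YAP-S127A, 9.39, 9.64 and 9.73 on vector and 10.40, 9.54 and 10.30 on mock arrays. For both, mock array 2 lay near the vector arrays and well below mock arrays 1 and 3. ADM and ANGPTL4 differed from vector by 0.08 and 0.24 and from mock by −0.27 and −0.25. The difference of ADM from mock was −0.50 without mock array 2 and then passed (adjusted p = 0.0324), but −0.13 without mock array 1 (0.786) and −0.16 without mock array 3 (0.67). Its difference from vector was −0.05 without YAP-S127A array 3 (adjusted p = 0.931).

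**Figure D3:**
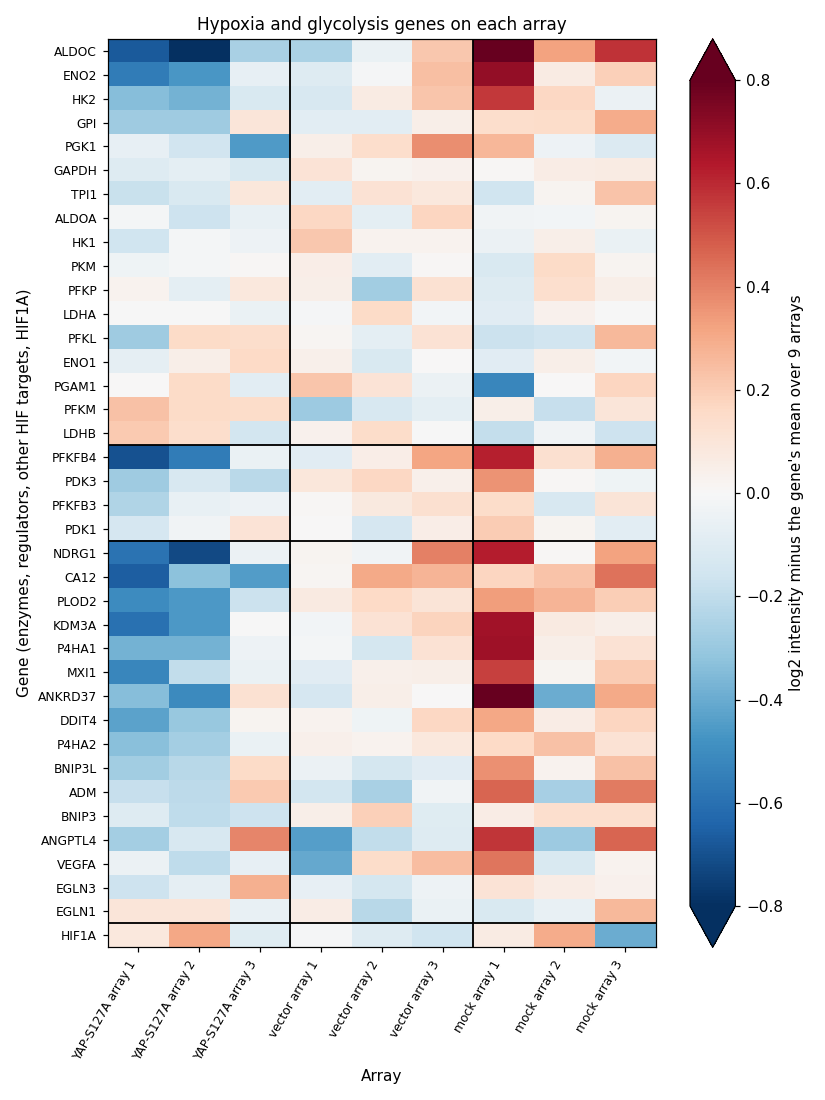
Normalized log2 intensity of each of the 38 genes on each of the 9 arrays, minus the gene's mean over the 9 arrays (blue lower, red higher, colour scale cut at 0.8 either way), with enzymes, regulators, other HIF targets and HIF1A separated by lines. YAP-S127A arrays 1 and 2 are blue in most HIF targets, YAP-S127A array 3 is pale, and mock array 1 is the reddest. Mock array 1 is the highest of all 9 arrays in 18 of the 38 genes, beside 15.5% of all genes tested.

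The spread within groups ran across many of these genes at once. Over the 16 other HIF targets, the mean deviation from each gene's own mean was −0.33, −0.29 and 0.005 on YAP-S127A arrays 1, 2 and 3, against −0.07, −0.01 and 0.08 on the vector arrays and 0.39, 0.001 and 0.22 on the mock arrays. By this mean YAP-S127A array 3 and mock array 2 lay within the range of the vector arrays. By the median deviation YAP-S127A array 3 (−0.044) lay below all vector arrays (−0.019, −0.002 and 0.064) and all mock arrays (0.397, 0.036 and 0.200). Over all genes tested the means lay between −0.005 and 0.005 on every array, where quantile normalization holds them near 0. YAP-S127A array 3 was the highest of its group in 12 of the 16 targets, beside 32.7% of all genes tested, and mock array 1 in 12 of the 16, beside 33.4%. The 17 glycolytic enzymes moved less, with −0.14, −0.12 and −0.04 on YAP-S127A arrays, −0.001, −0.01 and 0.09 on vector and 0.08, 0.05 and 0.09 on mock arrays. All YAP-S127A arrays lay below all 6 control arrays in 5 of the 16 other HIF targets and 2 of the 17 enzymes, where 5.64% of all genes tested did. YAP-S127A array 3 had the lowest median raw signal of the 9 arrays, 107 intensity units, and vector array 2 the next, 109. The part of signal strength in this spread was not tested.

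**Figure D4:**
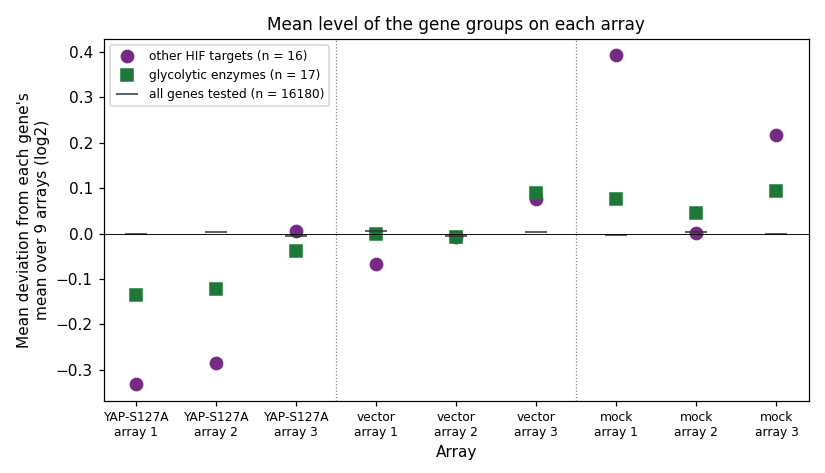
Mean deviation of the 16 other HIF targets (circles), the 17 glycolytic enzymes (squares) and all genes tested (dashes) from each gene's mean over 9 arrays, in log2 units, for each array. Quantile normalization holds the dashes near 0. The HIF targets run from −0.33 on YAP-S127A array 1 to 0.39 on mock array 1, and the mean of YAP-S127A array 3, 0.005, is within the range of the vector arrays, though its median deviation is below theirs.

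Against mock, 4 genes were called once YAP-S127A array 2 was left out (ALDOC, PFKFB4, CA12 and PLOD2), where 2.01% of all genes were called in either direction. With YAP-S127A array 1 left out these 4 and NDRG1 were called, where 2.11% of all genes were, and the same 5 with mock array 1 left out, where 2.36% were. Leaving out YAP-S127A array 3 instead gave 14, where 3.05% of all genes were called. ALDOC, PFKFB4, CA12 and PLOD2 were called against mock in all 9 such fits. Against vector, where 3.45% of all genes were called with all arrays, the count of 4 became 1, CA12, with YAP-S127A array 1 or 2 or vector array 2 left out (2.06%, 1.8% and 2.08% of all genes), and 2 with vector array 3 left out (1.91%). It became 6 with YAP-S127A array 3 left out (2.63%), and 7 with mock array 1 left out (4.56%), which enters that comparison only through the normalization, the filter and the shared estimate of the spread. CA12 was called against vector in all 9 fits. PFKFB4, CA12, NDRG1 and PLOD2 were called against both controls, where 1.03% of all genes tested fell in both and 1.34% rose in both.

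**Figure D5:**
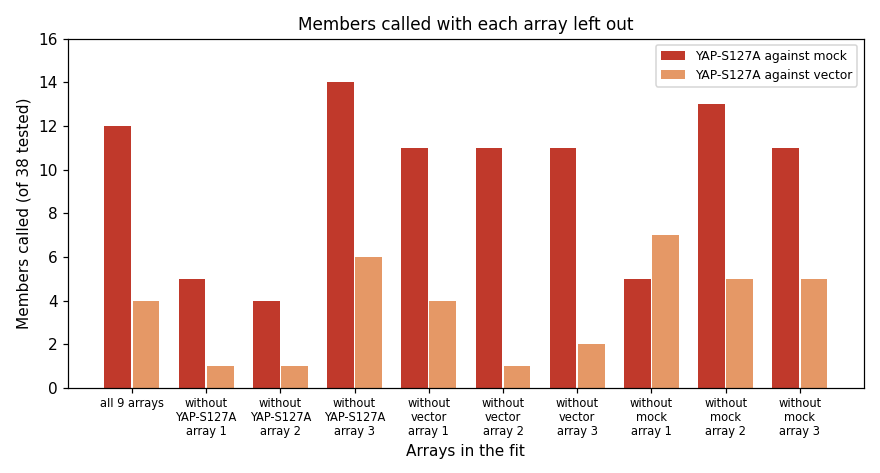
Number of the 38 genes called at an adjusted p under 0.05 when all 9 arrays enter the fit and when each array in turn is left out, for YAP-S127A against mock (dark bars) and against vector (light bars). The count against mock ranges from 4 without YAP-S127A array 2 to 14 without YAP-S127A array 3.

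Vector and mock cells were compared to show how the controls differ from each other. None of the 38 genes was called by limma (0 of 38, where 0.0124% of all genes tested were called in either direction), and 5 had an unadjusted p under 0.05, all lower in vector. At that unadjusted level 463 of the 16180 genes tested were lower in vector and 448 higher. The median difference was −0.16 for the other HIF targets, of which all 16 lay below 0, and 0.01 for the enzymes. Of all 16180 genes tested, 7890 lay below 0. In 4 of the 16 targets (BNIP3L, EGLN3, P4HA2 and PLOD2) and in the enzymes ALDOC and GPI all vector arrays lay below all mock arrays, where 4.52% of all genes tested did. LDHB lay above, as 5.61% of all genes did. Without mock array 1 the median of the other HIF targets was −0.12, and without mock array 2 it was −0.25.

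Genes of the same pathways outside the 40 were looked at from lists. Of 20 further glycolysis and pyruvate genes tested, 1 rose against each control and 0 fell. Of all genes tested, 2.18% rose against mock and 1.76% against vector. The gene that rose was SLC2A3, a high-affinity glucose transporter and itself a reported HIF target. It read 10.15, 10.12 and 10.42 on YAP-S127A, 7.34, 7.43 and 7.92 on vector and 8.74, 7.76 and 8.18 on mock arrays, opposite in direction to the genes above. The rise was 2.66 ± 0.18 over vector (limma, adjusted p = 4.58e-10) and 2.00 ± 0.18 over mock (6.81e-08), and it was called in all 9 fits without 1 array. SLC2A1, the widespread glucose transporter, differed by 0.16 from vector and 0.01 from mock. Of 27 further reported HIF targets tested, SLC2A3 not among them, 5 fell against mock and 2 against vector, and 0 rose in either. Of all genes tested, 2.07% fell against mock and 1.7% against vector. ISG20, an exonuclease, read 8.88, 8.63 and 9.05 on YAP-S127A, 9.23, 9.25 and 9.64 on vector and 9.72, 9.70 and 9.78 on mock arrays, and fell by 0.88 ± 0.12 against mock and 0.52 ± 0.12 against vector (limma, adjusted p = 6.01e-05 and 0.0173). ZNF395, a zinc finger protein, fell by 0.40 ± 0.10 against each (adjusted p = 0.0267 and 0.0303). ERO1A, the oxidase that drives disulfide formation in the endoplasmic reticulum (−0.57 ± 0.14), QSOX1, another disulfide-forming oxidase (−0.43 ± 0.12), and the lipoprotein receptor gene VLDLR (−0.39 ± 0.10) fell against mock and did not pass against vector. Against mock, the call of ISG20 was made in all 9 fits without 1 array. Those of ZNF395, ERO1A, QSOX1 and VLDLR each ended without YAP-S127A array 1 or 2 or mock array 1, with changes between −0.50 and −0.33 and adjusted p from 0.0874 to 0.203. They also ended without mock array 2 (QSOX1, −0.44), mock array 3 (ZNF395, −0.37, ERO1A, −0.52, and VLDLR, −0.38), YAP-S127A array 3 (VLDLR, −0.39) or vector array 3 (QSOX1, −0.43), with adjusted p from 0.0552 to 0.0774. Against vector, the call of ISG20 ended without YAP-S127A arrays 1 or 2 or vector array 3 (−0.53, −0.40 and −0.38), and that of ZNF395 without YAP-S127A arrays 1 or 2 or vector arrays 2 or 3 (−0.37, −0.39, −0.39 and −0.35). The median change of these 27 genes was −0.21 against mock and −0.12 against vector.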

How the data were processed

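RNA of 9 MKN45 samples was hybridised to Illumina bead arrays, from biotin-labelled cRNA per the labels' protocols. The authors deposited bead-summarised signals as intensity on a linear scale for 47231 probes, and log2 values that are quantile normalized (every array has the same median, 6.92). The submitters' processing notes name BeadStudio without a version; how it was set is not given here. Signals were background-corrected by normexp with an offset of 50, set on the log2 scale and quantile normalized (limma 3.58.1, R 4.3.3), which shrinks changes of dim genes. Probes with a mean above the lower quartile of all probes (6.18) were kept, and the brightest probe stood for a gene. Of the probes, 30113 had 1 listed gene symbol, 8 several and 17110 none, and 30074 symbols were updated by gene ID. One limma model held a mean for each group over all 9 arrays, and p-values were adjusted over 16180 genes. The fit was tested on simulated data in which genes varied independently, so deviations shared by many genes on an array were not covered.

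The genes and lists were chosen with earlier results of these data known. Every one of the 40 genes is accounted for. Values on each array are given for genes called in any comparison, for HIF1A, VEGFA and LDHA, and for SLC2A3, EPAS1 and ISG20 from the further lists. Those of PGK1, PFKM, ADM, ANGPTL4 and ANKRD37 were added after they were seen. Alternatives were other background correction, scaling, filters, probe summaries, moderation and thresholds, the deposited log2 values, replicate number as a block, and leaving out each array. The depth of an array experiment is limited by the number of arrays.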

Additional observations from a re-analysis of the deposited data

How the results depend on the processing

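The calls against mock varied with the threshold and with single arrays. The count of 12 was 6 at an adjusted p under 0.01 and 7 with at least 1.5-fold, and between 4 and 14 without 1 array. With the other settings it lay between 8 (mean of the probes of a gene) and 13. The count of 4 against vector was 2 with cyclic loess, 2 with the mean of the probes, 7 with only the arrays of the compared groups, 7 with array weights, 2 at an adjusted p under 0.01, 1 with 1.5-fold, and between 1 and 7 without 1 array. With array weights, without background correction and with the deposited values 1 of these calls was a rise, that of PFKM. With the mean of the probes, P4HA1 and P4HA2 also did not pass against mock (adjusted p = 0.0606 and 0.0656), and with only the arrays of those groups P4HA2 and DDIT4 did not, at the same changes of −0.39 and −0.42 (0.0615 and 0.0748). PFKFB4 and NDRG1 did not pass against vector without background correction, with cyclic loess, with the deposited values, with the mean of the probes, or with trend and robust moderation, with adjusted p from 0.0536 to 0.214 and changes of −0.53 to −0.50 for PFKFB4 and −0.60 to −0.54 for NDRG1. GPI passed as lower against mock without background correction, with the deposited values and with trend and robust moderation (0.0477, 0.0366 and 0.0352). Against vector, PGK1 passed as lower with trend and robust moderation (0.0342) and with only those groups' arrays (0.0466). ALDOC also passed as lower against vector with equal medians, no filter, only those groups' arrays and array weights (adjusted p from 0.0123 to 0.0453), and KDM3A with the last 2 (0.0492 and 0.0322). The count between vector and mock was 0 under each of these settings. The median change of the enzymes against mock was −0.106, not −0.056, when arrays were scaled to equal medians. Without 1 array it lay between −0.158 and −0.063 against vector and between −0.036 and 0.026 for vector against mock. Scaling to equal medians left 31.3% of all calls against mock as rises, in place of 51.2%, and 38.5% against vector, in place of 50.8%. All genes called then numbered 470 in place of 687 against mock and 366 in place of 559 against vector. Called genes changed sign under none of these settings. The causes were not tested. Arrays with the same replicate number did not deviate together (correlations of −0.146 to 0.1). With replicate number as a block 12 genes were called against mock, 5 against vector (ALDOC added, adjusted p = 0.0323) and 0 between the controls.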
